A study of Mus musculus with 4 samples.

Results

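The genes described here make or remove reactive oxygen and nitrogen at the inflamed gut surface: Duox2, Duoxa2, Nox1, Noxo1 and Cybb of the NADPH oxidases, the peroxidase Lpo, the nitric oxide synthase Nos2, the itaconate enzyme Acod1, and the antioxidant enzymes Gpx2 and Sod2. Members were taken by gene symbol in the platform annotation, and 8 of the 10 had a probe set, 13 probe sets in all, out of 45037 probe sets and 18193 named genes on the array. Duox2 and Nox1 had no probe set under their symbols and were not analysed here.

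Each of 4 Affymetrix arrays held RNA of colonic intestinal epithelial cells from 1 genotype: DKO (Bmi1ΔIEC Mel18ΔIEC), with both genes deleted in intestinal epithelial cells; Bmi1ΔIEC; Mel18ΔIEC, whose gene symbol is Pcgf2; and WT. Bmi1 and Mel18 are related subunits of Polycomb repressive complex 1, which keeps genes silent through chromatin. All mice were C57BL/6, sex-matched and 6 to 8 weeks old. WT mice had the same exposure as the knockouts: azoxymethane, a colon carcinogen, at 10 mg/kg, and 5 days later the irritant dextran sulfate sodium at 3.5% in drinking water for 5 days, with harvest on day 12. No untreated mice are among the arrays. The cells were released from opened colon by shaking in EDTA, with no sort in the protocol. The promoter that drives the deletion and the number of mice behind an array are not given in the sources used here. Every value below is therefore from 1 array, no difference has a replicate check, and no test was possible.

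NADPH oxidases pass electrons to oxygen to make superoxide or hydrogen peroxide. In the gut epithelium the dual oxidase DUOX2 and the NOX1 complex release these toward the lumen, and secreted peroxidases use hydrogen peroxide to form antimicrobial oxidants. Phagocytes use a separate oxidase built on CYBB, and inflamed epithelium and macrophages can induce nitric oxide synthase and the itaconate enzyme, while glutathione peroxidases and superoxide dismutases limit damage to the cells themselves.

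Values are RMA intensities on a linear scale, and differences are log2 of their ratio. A gene was counted as higher or lower when the brighter of the compared arrays reached a floor of 33.4 intensity units, the median of all probe-set values, and the difference was 2-fold or more. The medians of the 4 arrays lay between 32.1 and 34.2. The Bmi1 signal was brighter where the label says Bmi1 was lost: its 2 probe sets read 432 and 399 on the DKO array and 334 and 339 on the Bmi1ΔIEC array, against 160 and 135 on the Mel18ΔIEC array and 116 and 88.4 on the WT array. The brighter Pcgf2 probe set read 32.0 on the DKO array, 33.4 on the Bmi1ΔIEC array, 39.8 on the Mel18ΔIEC array and 30.2 on the WT array. Neither gene was lower than WT on the arrays labelled as lacking it. The place of the probes relative to the deleted part is not given, so these probe sets check no label, and every array is called by its label below. All 10 epithelial markers were at or above the floor on every array, among them Epcam at 10481 on the DKO array, 10012.5 on the Bmi1ΔIEC array, 9819 on the Mel18ΔIEC array and 10930 on the WT array.

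The promoters of 3 genes are printed because Duoxa2, Lpo and Acod1 were the members at least 2-fold lower on both the Bmi1ΔIEC and Mel18ΔIEC arrays than on the WT array. The sequences are from RefSeq, build GRCm38.p6, and run 5′ to 3′ on the gene's strand from 250 bases before the start to 50 after it. They lie at chr2:122298650-122298949 on the plus strand (Duoxa2), chr11:87826065-87826364 on the minus strand (Lpo) and chr14:103046762-103047061 on the plus strand (Acod1). Capitals mark matches to the motifs searched.
Duoxa2: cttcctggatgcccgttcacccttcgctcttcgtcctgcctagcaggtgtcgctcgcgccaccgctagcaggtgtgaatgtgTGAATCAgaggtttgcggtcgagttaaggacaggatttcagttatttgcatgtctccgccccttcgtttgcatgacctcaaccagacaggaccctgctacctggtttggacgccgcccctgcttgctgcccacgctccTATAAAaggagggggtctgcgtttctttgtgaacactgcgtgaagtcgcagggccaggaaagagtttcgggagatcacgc
Lpo: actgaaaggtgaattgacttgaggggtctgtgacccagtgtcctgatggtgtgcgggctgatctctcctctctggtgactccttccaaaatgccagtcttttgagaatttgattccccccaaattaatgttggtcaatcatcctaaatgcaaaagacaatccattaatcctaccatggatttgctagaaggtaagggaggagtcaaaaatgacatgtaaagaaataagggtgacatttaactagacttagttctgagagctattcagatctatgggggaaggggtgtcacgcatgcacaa
Acod1: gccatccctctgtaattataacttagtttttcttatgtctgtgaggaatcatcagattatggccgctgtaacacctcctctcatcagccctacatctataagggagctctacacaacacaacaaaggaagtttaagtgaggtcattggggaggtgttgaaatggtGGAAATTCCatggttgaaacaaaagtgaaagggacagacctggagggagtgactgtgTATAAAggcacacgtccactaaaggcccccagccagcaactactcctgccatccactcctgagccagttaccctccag

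The 5 motifs were searched on both strands: NF-kB as GGNNNTTCC, the STAT site GAS as TTCNNNGAA, the antioxidant response element as TGACNNNGC, AP-1 as TGANTCA and the TATA box as TATAAA. The TATA box and the NF-kB letters were settled after the sequences were seen. Duoxa2 held AP-1 letters TGAATCA beginning 168 bases before its start and TATAAA beginning 30 bases before it, and Acod1 held NF-kB letters GGAAATTCC, which match on both strands, beginning 85 bases before its start and TATAAA beginning 28 bases before it. No motif overlapped a different one in these windows, and Lpo held none of the 5. Of all 32851 promoters of this length, 18.5% held the NF-kB letters, 7.81% the AP-1 letters and 13.6% TATAAA. Among the 9 members with a promoter sequence, Cybb also held AP-1 and NF-kB letters, Nox1 held NF-kB letters, and Sod2 held GAS letters, found in 8.3% of all promoters. The antioxidant response letters, found in 12.4% of all promoters, were in none of the 9.

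The peroxidase Lpo and the oxidase partner Duoxa2 were lower on both single-knockout arrays than on the WT array, and Acod1 followed the same order. Lpo was the member that varied most over the 4 arrays, by 4.52 on the log2 scale, and Noxo1, Gpx2 and Sod2, all bright on every array, varied least, by 0.63, 0.72 and 0.46. In 6 of the 8 genes the DKO and WT arrays were the 2 highest, which held for 23.2% of the 12154 genes that reached the floor on any array. Gpx2 and Sod2 were the exceptions. The members were chosen with earlier results of these data known, so the share gives a scale for the count and no test of it.

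**Figure D1:**
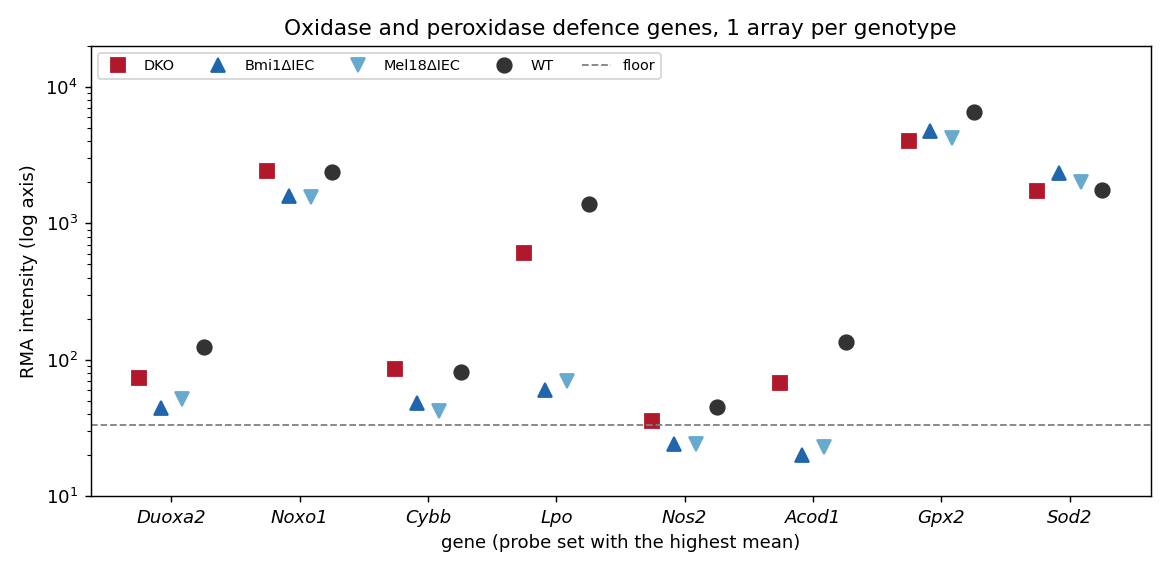
RMA intensity (log axis) of the 8 measured genes on the DKO, Bmi1ΔIEC, Mel18ΔIEC and WT arrays, 1 point per array, with the floor of 33.4 as a dashed line. Lpo spans 60.4 to 1384, and Nos2 and Acod1 lie under the floor on both single-knockout arrays; heights of different genes are not comparable, since each probe set has its own response.

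Lactoperoxidase, encoded by Lpo, is a secreted haem peroxidase that oxidises thiocyanate with hydrogen peroxide to an antibacterial product. Lpo (probe set 1448998_at) read 603 on the DKO array, 60.4 on the Bmi1ΔIEC array and 70.4 on the Mel18ΔIEC array, against 1384 on the WT array. All 4 values were above the floor, the WT array was highest, and both single-knockout arrays were low. Its differences from WT were -1.20 on the DKO array, -4.52 on the Bmi1ΔIEC array and -4.30 on the Mel18ΔIEC array. Lpo ranked 160 from the lowest of 11853 genes on the DKO array, 10 of 11934 on the Bmi1ΔIEC array and 5 of 11862 on the Mel18ΔIEC array. The DKO array exceeded the Bmi1ΔIEC array by 3.32 and the Mel18ΔIEC array by 3.10 in Lpo.

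DUOXA2 is the maturation factor that lets DUOX2 leave the endoplasmic reticulum and reach the cell surface, and its gene neighbours Duox2. Duoxa2 (1422137_at) read 74.0 on the DKO array, 44.5 on the Bmi1ΔIEC array and 51.3 on the Mel18ΔIEC array, against 123 on the WT array. Every knockout-labelled array was below the WT array, with the DKO array in between. The differences from WT were -0.74, -1.47 and -1.26 in that order, so the 2-fold rule was passed on the single-knockout arrays and not on the DKO array. The paralogous pair Duox1 and Duoxa1 stayed under the floor on all 4 arrays, with at most 15.5 for Duox1 and 31.4 for Duoxa1.

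NOXO1 is the organiser protein that assembles the NOX1 complex at the membrane. Noxo1 (1425151_a_at) read 2442 on the DKO array, 1578 on the Bmi1ΔIEC array and 1574 on the Mel18ΔIEC array, against 2369 on the WT array. The DKO and WT arrays were nearly level, with a difference of 0.04, and both single-knockout arrays differed from WT by -0.59, short of the 2-fold rule. CYBB, also called gp91phox, is the catalytic subunit of the phagocyte oxidase. Its brightest probe set (1436778_at) read 85.5 on the DKO array, 48.1 on the Bmi1ΔIEC array and 42.0 on the Mel18ΔIEC array, against 81.7 on the WT array. The order of the arrays was that of Noxo1, with differences from WT of 0.07 on the DKO array, -0.76 on the Bmi1ΔIEC array and -0.96 on the Mel18ΔIEC array, and the DKO array exceeded the Mel18ΔIEC array by 1.03. The other Cybb probe sets, 1436779_at and 1422978_at, lay under the floor on every array and differed from each other in direction, with Mel18ΔIEC minus WT at 0.29 in the first and -0.43 in the second.

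Inducible nitric oxide synthase, encoded by Nos2, makes nitric oxide from arginine during inflammation. Nos2 (1420393_at) read 35.8 on the DKO array and 24.3 on each of the Bmi1ΔIEC and Mel18ΔIEC arrays, against 44.8 on the WT array. The single-knockout values lay under the floor and the others just above it, so the differences from WT of -0.88 on both single-knockout arrays and -0.32 on the DKO array rest on dim signal. Set against the floor instead of the measured value, Nos2 was at least 1.34-fold lower on each single-knockout array than on the WT array. ACOD1 makes itaconate, an antibacterial metabolite best known from macrophages. Acod1 (1427381_at) read 68.1 on the DKO array, 20.1 on the Bmi1ΔIEC array and 23.1 on the Mel18ΔIEC array, against 134 on the WT array. Its differences from WT were -0.98, -2.74 and -2.54 in that order. With the floor in place of the single-knockout values, Acod1 was at least 4.02-fold lower on each of these arrays than on the WT array, and at least 2.04-fold higher on the DKO array than on either of them.

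GPX2, the gastrointestinal glutathione peroxidase, reduces peroxides inside epithelial cells. Gpx2 (1449279_at) read 3989 on the DKO array, 4723 on the Bmi1ΔIEC array and 4204 on the Mel18ΔIEC array, against 6578 on the WT array. Here the WT array stood above the other 3, with differences of -0.72, -0.48 and -0.65, none of them 2-fold, and the DKO array was lowest. SOD2 turns superoxide into hydrogen peroxide in mitochondria. Its brightest probe set (1448610_a_at) read 1720 on the DKO array, 2359 on the Bmi1ΔIEC array and 2003 on the Mel18ΔIEC array, against 1756 on the WT array. Sod2 was the only measured member whose single-knockout values were both above WT, by 0.43 and 0.19, again short of 2-fold. Its 4 probe sets all placed the Bmi1ΔIEC array above WT, by 0.35 to 0.51, but differed for the DKO array, from -0.46 (1454976_at) to 0.62 (1417194_at, whose WT and Mel18ΔIEC values were under the floor).

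**Figure D2:**
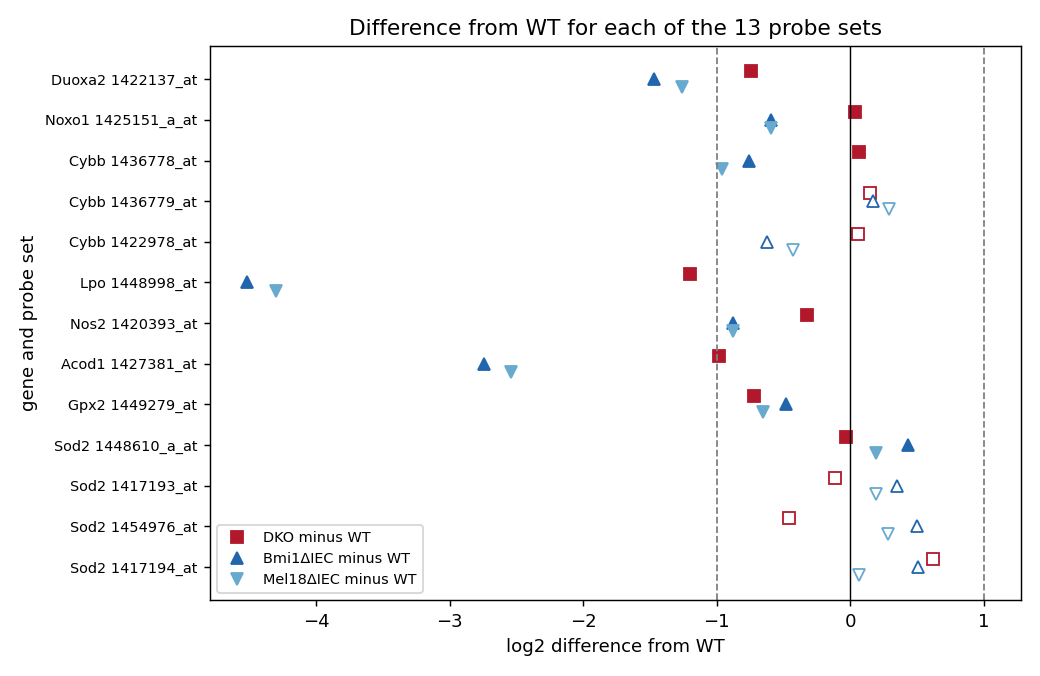
Log2 difference from WT (horizontal axis) for each of the 13 probe sets on the DKO, Bmi1ΔIEC and Mel18ΔIEC arrays, filled for the brightest probe set of a gene and open for the others, with dashed lines at 2-fold. Lpo, Acod1 and Duoxa2 lie left of the 2-fold line on both single-knockout arrays, and only Lpo does on the DKO array.

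All 8 measured genes reached the floor in every comparison, although Nos2 and Acod1 did so against the single-knockout arrays only through the brighter array. On the DKO array 1 of the 8 (Lpo) was lower than WT by the 2-fold rule, where 2.19% of all 11853 genes were, and none was higher, where 2.13% were. On the Bmi1ΔIEC array 3 of the 8 (Duoxa2, Lpo and Acod1) were lower, where 2.86% of 11934 genes were, and none was higher, where 5.76% were. On the Mel18ΔIEC array the same 3 were lower, where 2.5% of 11862 genes were, and none was higher, where 3.15% were. These comparisons share the WT array. Because the members were chosen with earlier results of these data known, the shares of all genes here and below are a scale and no test. With the floor raised to percentile 75 of all values, Lpo was the only member still called on each of the 3 arrays. Of all genes 2.17% were then lower than WT on the DKO array, 3.03% on the Bmi1ΔIEC array and 2.63% on the Mel18ΔIEC array. The median difference of the 8 genes was -0.52 on the DKO array, -0.82 on the Bmi1ΔIEC array and -0.92 on the Mel18ΔIEC array, beside -0.01, 0.13 and 0.07 over all genes compared.

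Between the single-knockout arrays, Bmi1ΔIEC minus Mel18ΔIEC ran from -0.22 for Lpo to 0.24 for Sod2. Of all 11681 genes 66.2% lay within 0.24 in size and 1.4% differed 2-fold. The bound of 0.24 is the members' own largest difference, so this share cannot tell whether the members were closer than other genes. Nos2 and Acod1 were under the floor on both of these arrays.

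Compared with the single-knockout arrays, the DKO array was higher in Lpo and Acod1, and in Cybb against the Mel18ΔIEC array. Lpo and Acod1 were at least 2-fold higher on the DKO array than on the Bmi1ΔIEC array, 2 of the 8 where 4.3% of 11966 genes were, and no member was lower, where 7.96% were. Against the Mel18ΔIEC array 3 of the 8 (Cybb, Lpo and Acod1) were higher, where 3.84% of 11879 genes were, and none was lower, where 4.53% were. The Cybb call was lost with the mean over its 3 probe sets (0.46) and with arrays centred on their medians (0.97). Acod1 differed by 1.76 and 1.56 in these comparisons, Duoxa2 by 0.74 and 0.53, and Nos2 by 0.56 in each. Gpx2 and Sod2 were slightly lower on the DKO array, by values from -0.46 to -0.08.

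A non-additive term, the sum of the DKO and WT values less the sum of the single-knockout values on the log2 scale, is 0 when the differences of the single knockouts add up in the DKO. This term was 7.61 for Lpo, 4.30 for Acod1, 2.00 for Duoxa2, 1.79 for Cybb, 1.44 for Nos2 and 1.22 for Noxo1. Its value was 0.40 for Gpx2 and -0.65 for Sod2. It was therefore at least 1 in 6 of the 8 genes, as in 8.7% of all 12154 genes, and at most -1 in none, as in 18.6% of all genes. For a gene low on both single-knockout arrays, the DKO value that would give a term of 0 can lie below what an array reads. A positive term is then partly fixed by the scale, so these counts are descriptions only. Setting measured values to the floor, as below, does not remove this limit. Nos2 and Acod1 were under the floor on both single-knockout arrays. With values under the floor set to it, the term was 0.53 for Nos2 and 3.04 for Acod1, and 5 of the 8 genes reached 1, as did 7.68% of all genes.

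Ncf1 and Ncf4 were 2-fold lower than WT on the Bmi1ΔIEC array and Rac2 on the Mel18ΔIEC array, and no other oxidase subunit passed the rule. Of 12 listed NADPH oxidase genes 9 had a probe set and 6 reached the floor. Ncf1 (p47phox) read 113 on the DKO array, 50.4 on the Bmi1ΔIEC array and 54.8 on the Mel18ΔIEC array, against 103 on the WT array, and differed from WT by 0.14, -1.03 and -0.91. Ncf4 (p40phox) differed by -0.23, -1.07 and -0.92, and Rac2, the blood-cell Rac GTPase, by 0.32, -0.54 and -1.19. These are partners of CYBB in phagocytes. Cyba (p22phox), shared by the epithelial and phagocyte oxidases, differed by 0.40, -0.04 and -0.25, and the widely expressed Rac1 by at most 0.12 in size. By the 2-fold rule none of the 6 was lower on the DKO array, 2 on the Bmi1ΔIEC array and 1 on the Mel18ΔIEC array. None was higher on any, and the medians were 0.07, -0.33 and -0.58. Of all genes compared, 2.19%, 2.86% and 2.5% were lower on those arrays, and 2.13%, 5.76% and 3.15% were higher. The same shares apply to the counts against WT in the lists below.

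Of 6 other haem peroxidases listed, 4 had a probe set and 2 reached the floor, of which none passed the 2-fold rule on the DKO array and 1 was lower on each single-knockout array. The granulocyte enzymes Mpo and Epx stayed under the floor on all 4 arrays, with at most 13.6 and 9.8. Ptgs2, the inducible prostaglandin synthase, which has a peroxidase site, read 85.0 on the DKO array, 15.0 on the Bmi1ΔIEC array and 20.2 on the Mel18ΔIEC array, against 117 on the WT array. Its order of arrays was that of Lpo, but both single-knockout values lay under the floor, so the size of its differences rests on dim signal. Pxdn, the matrix peroxidase peroxidasin, differed from WT by at most 0.57 in size.

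Genes around nitric oxide and arginine had 7 of 9 members reach the floor. Gch1, which starts synthesis of the cofactor of nitric oxide synthases, read 925 on the DKO array, 310 on the Bmi1ΔIEC array and 408 on the Mel18ΔIEC array, against 858 on the WT array. Gch1 was bright on every array and low on both single-knockout arrays, with differences from WT of 0.11, -1.47 and -1.07. Arg1, which competes with nitric oxide synthase for arginine, read 91.7, 12.7 and 9.2 on the DKO, Bmi1ΔIEC and Mel18ΔIEC arrays, against 84.7 on the WT array. Both single-knockout values of Arg1 lay under the floor. The mitochondrial arginase Arg2 ran the other way, at 95.6 on the DKO array, 75.3 on the Bmi1ΔIEC array and 52.6 on the Mel18ΔIEC array. It read 28.1, under the floor, on the WT array. In all, 1 member was higher and none lower on the DKO array, 1 higher and 2 lower on the Bmi1ΔIEC array, and none higher and 2 lower on the Mel18ΔIEC array, with medians of 0.09, -0.14 and -0.28.

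Most antioxidant enzymes differed little from WT, and catalase was higher on the Bmi1ΔIEC array. Of the other glutathione peroxidases, superoxide dismutases and catalase, 6 of 8 genes reached the floor and only Cat passed the 2-fold rule against WT, with list medians of 0.07, 0.30 and 0.19 on the DKO, Bmi1ΔIEC and Mel18ΔIEC arrays. Catalase (Cat), which splits hydrogen peroxide, read 264 on the DKO array, 568 on the Bmi1ΔIEC array and 482 on the Mel18ΔIEC array, against 268 on the WT array. Gpx1 differed from WT by at most 0.27 in size and Sod1 by at most 0.40. None of the 9 measured peroxiredoxin and thioredoxin genes passed, with Prdx4 at -0.92 on the DKO array and Txnip at 0.97 on the Mel18ΔIEC array as the extremes. In the NRF2 list, the transcription factor programme for antioxidant and conjugating enzymes, the glutathione transferases stood apart by size. Gstm1 read 380 on the DKO array, 2915 on the Bmi1ΔIEC array and 2248 on the Mel18ΔIEC array, against 1539 on the WT array, and Gsta3 read 30.4, 273 and 137, against 120 on the WT array. The DKO value of Gsta3 was under the floor. Both genes belong to families of similar sequence, whose probe sets may share signal. Nqo1 read 75, 202 and 212, against 113 on the WT array, whereas the other classical target Hmox1 stayed between 31.8 and 50.8. Of the 11 NRF2 list genes at the floor, 2 were lower on the DKO array, 1 was higher on the Bmi1ΔIEC array and none passed on the Mel18ΔIEC array, with medians of 0.05, 0.45 and -0.09.

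**Figure D3:**
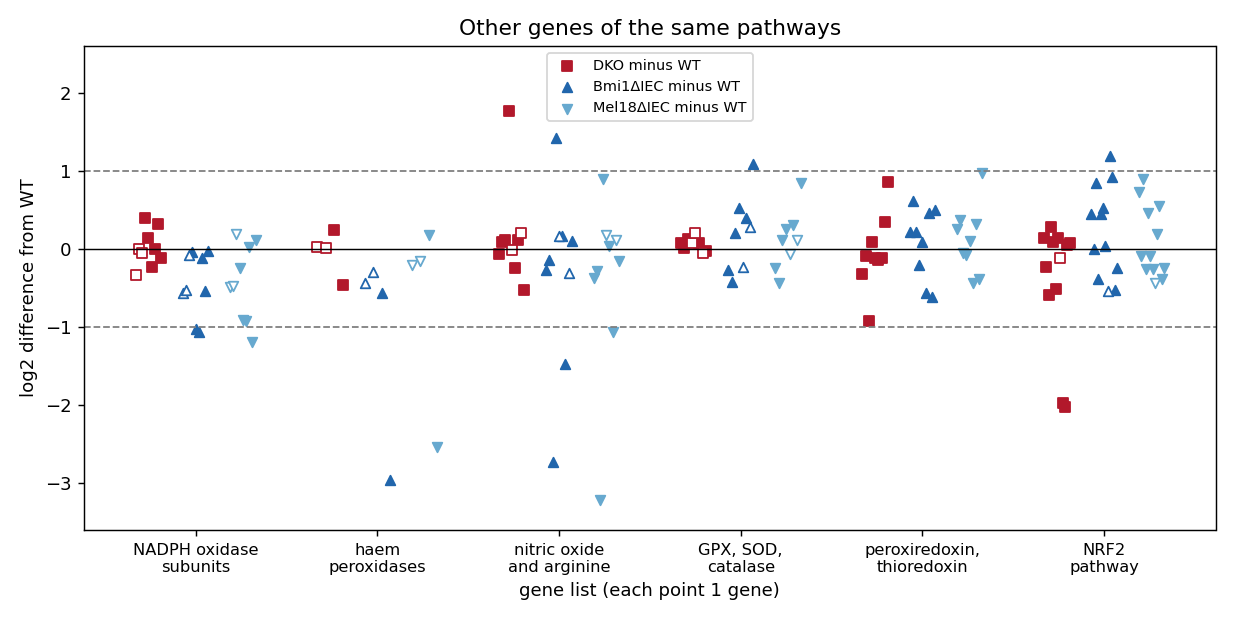
Log2 difference from WT (vertical axis) of each gene in 6 pathway lists on the DKO, Bmi1ΔIEC and Mel18ΔIEC arrays, filled where the higher value reached the floor and open otherwise, with dashed lines at 2-fold. Ptgs2 and Arg1 lie lowest on the single-knockout arrays, where their values are under the floor, and Gstm1 and Gsta3 lie near -2 on the DKO array only.

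The summed neutrophil markers were low on the same arrays as Lpo and Acod1, though not every marker followed. The summed macrophage markers were below WT on both single-knockout arrays, with more of them past the 2-fold rule on the Bmi1ΔIEC array. The 12 measured neutrophil markers summed to 2298 intensity units on the DKO array, 321 on the Bmi1ΔIEC array and 417 on the Mel18ΔIEC array, against 2438 on the WT array, and 8, 2, 5 and 7 of them reached the floor on those arrays. The calprotectin subunits S100a8 and S100a9 made up 68.8% of the sum on the DKO array, 15.3% on the Bmi1ΔIEC array, 35.0% on the Mel18ΔIEC array and 69.6% on the WT array, and without them the other 10 summed to 716, 272 and 271 on the knockout arrays in that order, against 741 on the WT array. By the 2-fold rule none was lower than WT on the DKO array. On each single-knockout array 4 of the 7 that reached the floor there or on the WT array were lower, namely S100a8, S100a9, Ltf and Il1r2. S100a8, S100a9 and Il1r2 on the Bmi1ΔIEC array, and Ltf and Il1r2 on the Mel18ΔIEC array, were themselves under the floor. The size of those differences therefore rests on dim signal. Of all genes 2.86% were lower on the Bmi1ΔIEC array and 2.5% on the Mel18ΔIEC array. Csf3r and Trem1 were below WT on both arrays without passing the rule. The granule genes Mpo, Camp and Mmp8 and the receptor gene Cxcr2 were under the floor on all 4 arrays. Elane, near or under the floor, differed from WT by -0.06 and 0.07 on the Bmi1ΔIEC and Mel18ΔIEC arrays, and Ngp by -0.36 and -0.11. The 16 measured macrophage and monocyte markers summed to 4370 on the DKO array, 2861 on the Bmi1ΔIEC array and 2629 on the Mel18ΔIEC array, against 4292 on the WT array, and 14, 12, 14 and 14 reached the floor. Cd14 ran against the list on the Bmi1ΔIEC array, at 1549 there and 1199 on the WT array, and without it the sums were 3648 on the DKO array, 1312 on the Bmi1ΔIEC array and 1873 on the Mel18ΔIEC array, against 3093 on the WT array. Of the 14 that reached the floor on at least 1 of the compared arrays, none was 2-fold lower than WT on the DKO array. On the Bmi1ΔIEC array 8 were, among them Mrc1 with a value there under the floor, and 2 were on the Mel18ΔIEC array. The shares of all genes lower in these comparisons were 2.19%, 2.86% and 2.5%. Cd163 and Itgam of that list were under the floor on all 4 arrays. The 10 epithelial markers summed to 73706 on the DKO array, 60524 on the Bmi1ΔIEC array and 63441 on the Mel18ΔIEC array, against 71769 on the WT array, and Krt20, a keratin of mature surface cells, was 2-fold lower on the Bmi1ΔIEC array at -1.29. The part of these cells in the values of Cybb, Acod1, Nos2, Ncf1, Ncf4, Rac2 and the others was not tested, and in such bulk preparations fewer cells of a type and less RNA per cell cannot be told apart.

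**Figure D4:**
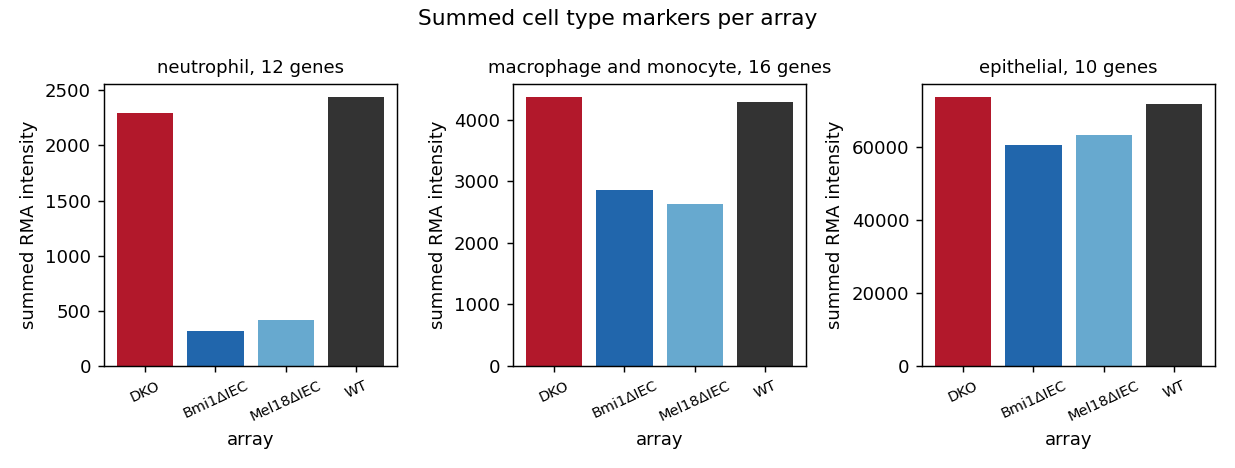
Summed RMA intensity (vertical axes from 0, of different scale) of 12 neutrophil, 16 macrophage and monocyte, and 10 epithelial marker genes on the DKO, Bmi1ΔIEC, Mel18ΔIEC and WT arrays. The neutrophil sum is 321 and 417 on the single-knockout arrays and 2298 and 2438 on the DKO and WT arrays.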

How the data were processed

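RNA of colonic epithelial cells was hybridised to Affymetrix mouse expression arrays, 1 per genotype, from 200 ng of total RNA. The authors deposited 1 RMA intensity per probe set, computed in Affymetrix Expression Console per the submitters' processing notes, on a linear scale from 3.25 to 22803. Neither the version nor a joint summary of the 4 arrays is stated there. Log2 of each intensity was taken without a pseudocount or further scaling, in Python 3.11.15 with pandas 2.3.3. Of 45037 probe sets, the platform annotation gives 34945 a lone gene symbol, 932 more than 1 and 9160 none. For 34741 of those with a lone symbol the gene identifier was found in RefSeq (GRCm38.p6), and its symbol there was used. Each gene was read from its brightest probe set, by mean log2 value. The call rule was run on simulated data in which genes well above the floor were shifted by more than the rule asks. That run checks the code only, not dim signal or the spread between real arrays. The members and gene lists were chosen with earlier results of these data known. Named beside the members were list genes past the 2-fold rule against WT (at most 4 per list), genes showing a list's range, and the 3 genes nearest in profile to Lpo and to Nos2. Alternatives were other probe-set rules, floors, scalings and fold thresholds. The number of arrays limits precision, and no p-value is given.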

Additional observations from a re-analysis of the deposited data

Results flagged for a closer look

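The difference for the labelled loss of 1 Polycomb gene had opposite directions on the 2 backgrounds in Lpo and Acod1, each at least 2-fold. For Lpo, the labelled loss of Bmi1 went with -4.52 on the log2 scale as Bmi1ΔIEC against WT. The difference was 3.10 as DKO against Mel18ΔIEC, a gap of -7.61. The labelled loss of Mel18 went with -4.30 as Mel18ΔIEC against WT and 3.32 as DKO against Bmi1ΔIEC. The gap was again -7.61, since both gaps use the same 4 values. For Acod1, the labelled loss of Bmi1 went with -2.74 and 1.56, and that of Mel18 with -2.54 and 1.76. The gap was -4.30 in each case. Acod1 lay under the floor on both single-knockout arrays, so these sizes rest on dim signal: with the floor in place of those values it was at least 4.02-fold lower on each single-knockout array than on the WT array and at least 2.04-fold higher on the DKO array than on either of them, a gap of 3.04 in size. With 1 array per genotype, none of these differences between backgrounds was tested.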

How the results depend on the processing

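Of 195 values of single genes recomputed under other settings, none past the 2-fold rule reversed, and 187 kept their side of the 2-fold rule and moved by less than 1.5-fold. The other 8 are values of Cybb, Nos2 and Acod1. Many of the values could hardly move, so this count is no measure of robustness. The mean over probe sets repeats the value of a gene with 1 probe set, and centring shifts all genes of an array alike. Other floors and fold thresholds were applied to the counts of members only. The counts of members depended on the rule. With the floor at percentile 75, Lpo alone remained in each direction. It made 1 member lower on the Bmi1ΔIEC array and 1 on the Mel18ΔIEC array than on WT, and 1 higher on the DKO array than on either. Fewer genes reach that floor. Of all genes 3.03% and 2.63% were then lower, and 4.58% and 4.1% higher, in those comparisons. At that floor 2 members had a non-additive term of at least 1, against 6. The share of all genes with such a term at that floor was not computed. Under a 1.5-fold rule, 4 members were lower than WT on the DKO array, 6 on the Bmi1ΔIEC array and 7 on the Mel18ΔIEC array, where 6.56%, 7.53% and 6.28% of all genes were, and 5 were higher on the DKO than on the Bmi1ΔIEC array, where 9.92% were. Under a 3-fold rule, 0 were lower on the DKO array than on WT and 1 was higher on the DKO than on the Mel18ΔIEC array, where 0.666% and 1.47% of all genes were. Setting values under the floor to it, chosen after seeing the data, left 5 members with a non-additive term of at least 1. Of all genes 7.68% then had such a term. Quantile normalization made 2 lower on the DKO array, where 2.25% of all genes were, adding Acod1 at -1.01. Centring arrays on those genes that reach the floor made 5 lower on the Mel18ΔIEC array, where 3.39% of all genes were. It added Cybb at -1.12 and Nos2 at -1.04. This centring moved the median of all genes on the Bmi1ΔIEC array to -0.12, against 0.13 as deposited, and the share of 2-fold genes that were higher there to 38.2%, against 66.8%. With the mean over its 3 probe sets, Cybb differed by 0.46 between the DKO and Mel18ΔIEC arrays, against 1.03. No paired analysis was possible because each genotype has 1 array.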

Other observations

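Over the 4 arrays, each centred profile was compared with those of 12153 other genes at or above the floor. Nearest to Lpo was Cxcl2, a neutrophil-attracting chemokine, at a root mean square distance of 0.132 on the log2 scale, followed by the protease Prss22 at 0.313 and the cytokine Il1b at 0.433. Cxcl2 read 413 on the DKO array, 46.5 on the Bmi1ΔIEC array and 51.8 on the Mel18ΔIEC array, against 836 on the WT array. Nearest to Nos2 were Resf1 at 0.029, the interferon-induced helicase-like gene Helz2 at 0.034 and Ly86, a partner of a Toll-like receptor homologue on B cells and macrophages, at 0.039. Nos2 was under the floor on both single-knockout arrays and just above it on the others, so its profile rests on dim signal. It varied by 0.88 over the 4 arrays, against 4.52 for Lpo, so distances to the 2 genes are not comparable. With 4 arrays each profile holds few values, so these are descriptions.

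Genes upstream of the inducible members were listed as well. None of 15 measured receptors and transcription factors passed the 2-fold rule against WT on any array, with 14 compared on each single-knockout array. On the DKO array 2 were higher than on the Bmi1ΔIEC array, Il22ra1 by 1.16 and Il17rc by 1.02, where 4.3% of all genes were. Against the Mel18ΔIEC array 1 was higher, Cebpb by 1.06, where 3.84% were. None was lower in these 2 comparisons, where 7.96% and 4.53% of all genes were. Nfkbiz, an NF-kB cofactor of interleukin-17 responses, read 1538 on the DKO array, 1252 on the Bmi1ΔIEC array and 1487 on the Mel18ΔIEC array, against 2301 on the WT array. Il22ra1, the epithelial interleukin-22 receptor, read 161 on the DKO array, 71.8 on the Bmi1ΔIEC array and 88.7 on the Mel18ΔIEC array, against 82.1 on the WT array. Irf1 read 2285, 1849 and 1661 on the DKO, Bmi1ΔIEC and Mel18ΔIEC arrays, against 2496 on the WT array.

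Markers of fibroblasts, T cells and B cells showed other patterns. The 6 fibroblast markers summed to 4991 on the DKO array, 1186 on the Bmi1ΔIEC array and 3332 on the Mel18ΔIEC array, against 3122 on the WT array. The 6 T cell markers summed to 553 on the DKO array, 356 on the Bmi1ΔIEC array and 303 on the Mel18ΔIEC array, against 402 on the WT array. The 3 measured B cell markers summed to 116 on the DKO array, 138 on the Bmi1ΔIEC array and 129 on the Mel18ΔIEC array, against 160 on the WT array.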
